A study of Homo sapiens with 14 samples.

Results

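The nuclear genes for the subunits of the 5 complexes of oxidative phosphorylation (OXPHOS) were examined in colonies of a colorectal cancer line, SW620, over 15 days of culture. The set was drawn by symbol: NDUFA, NDUFB, NDUFC, NDUFS and NDUFV genes (complex I), SDHA to SDHD (complex II), UQCR genes (complex III), COX4I, COX5, COX6, COX7 and COX8 genes (complex IV) and ATP5 genes (complex V). Assembly factors of the NDUFAF series, NDUFA4L2, antisense and divergent transcripts and pseudogenes were left out. It held 87 of the 36601 genes of the single-cell tables: 37 for complex I, 4 for complex II, 9 for complex III, 18 for complex IV and 19 for complex V. NDUFA4, now known as a subunit of cytochrome c oxidase, was counted with complex IV. COX7A2L, which helps to hold complexes together in supercomplexes, and ATP5IF1, the inhibitor of the ATP synthase, were kept by symbol although neither is a core subunit. After a filter on low counts 83 members could be tested in the single-cell data and 81 in the bulk data; COX4I2, COX6A2, COX7A1 and COX7B2 were too low to test in the single-cell libraries.

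Complex I takes electrons from NADH and complex II takes them from succinate; both pass them through ubiquinone to complex III, which hands them by cytochrome c to complex IV, where oxygen is reduced. Complexes I, III and IV pump protons across the inner mitochondrial membrane, and complex V, the ATP synthase, uses that gradient to make ATP. Complexes I, III, IV and V also contain a few subunits encoded by mitochondrial DNA, so the nuclear genes described here supply most but not all of their parts, while complex II is wholly nuclear. In tumour cells the balance between this pathway and glycolysis shifts with oxygen supply and growth rate.

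Single-cell RNA-seq covered 2 lines, a control line labelled SW620 and SW620-TET2CD, which overexpresses the catalytic domain of the DNA demethylase TET2, each as colonies taken apart on days 6, 9, 12 and 15, with 1 library per line and day. The study describes the single-cell control as cells that express FLAG. Bulk RNA-seq covered SW480, a line from the primary tumour of the same patient as SW620, and SW620, both on day 6, and on day 15 the cells inside and outside the colonies of SW620 and SW620-TET2CD, again with 1 library each. Cells of the colonies were grown without passage, and the outside cells were those that passed a strainer as single cells, so inside and outside samples of a line may come from 1 culture. With 1 library per line and day, days 6 and 9 (early) and days 12 and 15 (late) of both lines stood in for replicates, and p-values measure the spread between these 8 libraries, which may be partly technical.

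Cells were kept if they held between 200 and 4500 genes and between 1000 and 20000 UMIs, of which no more than 10% were mitochondrial. This left 48282 of 67056 barcodes, 3894 to 8154 per library, and 48186195 to 74185723 UMIs per library. Any pair of libraries shared 1 to 23 cell barcodes. TET2 stood at 2.11 to 3.90 CPM (UMIs scaled to the same library total) in the 4 SW620 libraries and at 40.2 to 107 CPM in the 4 SW620-TET2CD libraries, as the labels give it. Epithelial markers summed to 9296 to 14014 CPM, mostly through KRT8, KRT18 and KRT19. Of the same list KRT20, CDH17 and LGALS4 reached at most 2.98 CPM and CDX1 at most 0.207 CPM. Markers of fibroblasts summed to 8.37 to 28.7 CPM, those of endothelium to 0.379 to 1.39 CPM and those of leukocytes to 7.80 to 57.9 CPM, with KDR at 0 UMIs in every library and COL1A2, COL3A1, PTPRC, CD3E and CDH5 at or near 0. The leukocyte sum was higher on days 12 and 15 (24.1 to 57.9 CPM) than on days 6 and 9 (7.80 to 17.7 CPM), through CD68 and LYZ. The fibroblast sum was lower late (8.37 to 12.9 CPM) than early (16.6 to 28.7 CPM). Of its 4 tested genes 1 was called lower and 2 higher, COL1A1 (1.15 to 3.35 CPM) and DCN (at most 0.431 CPM). The part of these sums in the changes of the OXPHOS genes was not tested.

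Promoter sequences of 6 members are shown as examples of different late changes, without the extremes of the rise: ATP5MC1, NDUFS6, NDUFA9 and UQCRQ had some of the largest decreases, COX7A2L rose, and ATP5MC2 encodes the same c subunit as ATP5MC1 but was not called lower. Each is the 250 bases before the start of transcription on the gene's own strand, from RefSeq on GRCh38.p14, at chr17:48892537-48892786 (plus strand) for ATP5MC1, chr5:1801157-1801406 (plus) for NDUFS6, chr12:4648864-4649113 (plus) for NDUFA9, chr5:132866392-132866641 (plus) for UQCRQ, chr12:53676084-53676333 (minus) for ATP5MC2 and chr2:42361218-42361467 (minus) for COX7A2L. Capitals mark the letters of a motif searched: the NRF1 letters (GCGCA, any base, GCGC), read on the other strand, in NDUFA9, first base at -80 from the start, the ETS (GABPA) letters CCGGAAG in UQCRQ at -54, and the HIF letters ACGTG, read on the other strand, in ATP5MC2 at -241.
ATP5MC1: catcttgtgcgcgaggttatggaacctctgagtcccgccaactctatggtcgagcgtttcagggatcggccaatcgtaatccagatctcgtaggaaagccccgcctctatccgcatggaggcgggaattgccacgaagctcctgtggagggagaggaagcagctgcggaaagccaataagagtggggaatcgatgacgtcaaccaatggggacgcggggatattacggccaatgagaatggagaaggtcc
NDUFS6: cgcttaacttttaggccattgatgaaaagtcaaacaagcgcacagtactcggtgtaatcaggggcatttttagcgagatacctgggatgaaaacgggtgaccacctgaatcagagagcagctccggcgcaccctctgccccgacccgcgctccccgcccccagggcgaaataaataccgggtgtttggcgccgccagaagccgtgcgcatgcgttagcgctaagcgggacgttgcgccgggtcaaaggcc
NDUFA9: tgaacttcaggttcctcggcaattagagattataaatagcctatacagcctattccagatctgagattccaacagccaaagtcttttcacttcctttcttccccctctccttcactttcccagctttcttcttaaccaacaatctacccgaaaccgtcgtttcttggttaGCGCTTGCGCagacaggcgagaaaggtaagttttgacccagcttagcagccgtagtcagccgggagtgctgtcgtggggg
UQCRQ: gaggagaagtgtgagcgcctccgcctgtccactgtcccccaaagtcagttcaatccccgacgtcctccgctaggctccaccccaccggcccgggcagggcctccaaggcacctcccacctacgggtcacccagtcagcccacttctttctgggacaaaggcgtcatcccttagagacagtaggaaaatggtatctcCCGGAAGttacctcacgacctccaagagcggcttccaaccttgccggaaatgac
ATP5MC2: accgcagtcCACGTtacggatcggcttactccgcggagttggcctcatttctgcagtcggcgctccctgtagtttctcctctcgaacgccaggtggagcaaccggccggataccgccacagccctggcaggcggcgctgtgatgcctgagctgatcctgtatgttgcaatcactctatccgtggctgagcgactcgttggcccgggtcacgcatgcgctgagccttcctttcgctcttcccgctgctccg
COX7A2L: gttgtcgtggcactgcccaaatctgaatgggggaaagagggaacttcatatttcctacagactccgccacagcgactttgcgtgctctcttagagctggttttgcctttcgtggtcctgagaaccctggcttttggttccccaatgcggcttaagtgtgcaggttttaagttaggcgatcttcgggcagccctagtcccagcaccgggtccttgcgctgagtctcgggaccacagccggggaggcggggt

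RefSeq promoters were matched for 70 of the 87 members, and 17 had no entry. Over both strands the NRF1 letters, those of a factor known for driving respiratory genes, stood in 15 of the 70 promoters (21.4%), against 5.53% of all 27305 promoters of the same length. For the ETS letters, bound by GABPA, the counts were 17 of 70 (24.3%) against 8.82% of all promoters. The letters AAGGTCA of the oestrogen-related receptors stood in 5 (7.14%) against 3.46%, AAGATGGC of YY1 in 1 (1.43%) against 1.37%, and ACGTG of the hypoxia-inducible factors in 15 (21.4%) against 18.7%. NRF1 letters were present for 2 of the 3 matched complex II genes, 3 of 7 for complex III, 5 of 32 for complex I, 4 of 14 for complex V and 1 of 14 for complex IV. A match is a description of these letters in this window and was not set against the expression changes.

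The first question was how the members changed over culture time. In the single-cell libraries most members were lower on days 12 and 15 than on days 6 and 9, in both lines. By median fitted change and by summed CPM, the decrease there was deepest for complex I and shallowest for complex IV. In the median cell the 87 genes took 2.70% (SW620) and 2.79% (SW620-TET2CD) of the UMIs on day 6, 2.39% and 2.48% on day 9, 1.91% and 1.96% on day 12, and 1.84% and 1.66% on day 15. The cells of 1 library spread widely around this: from the 10th to the 90th percentile the share ran from 2.34% to 3.07% in SW620 on day 6 and from 1.30% to 2.12% in SW620-TET2CD on day 15, so the 90th percentile on day 15 of SW620-TET2CD lay below the 10th percentile on day 6 of SW620.

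edgeR's quasi-likelihood test on UMIs summed per library, with line as a term and Benjamini-Hochberg adjustment over 16993 genes (called at an adjusted p under 0.05), found 60 members lower and 4 higher in late culture and left 19 without a call. Over all genes tested, 28.3% were called lower and 29.4% higher. The median fitted log2 fold change of the 83 members was -0.65, while the median of all genes was 0.04 and their middle 50% ran from -0.51 to 0.61. In CPM, all 4 late libraries lay below all 4 early libraries for 54 members and above them for 7, and the groups overlapped for 22; over all genes tested these patterns took 21.9% and 30.1%. In 68 of the 83 the mean late CPM was below the mean early CPM in both lines, with a median log2 ratio of -0.46 in SW620 and -0.57 in SW620-TET2CD. On the TMM-scaled levels that the test uses it was 74 of the 83, with medians of -0.53 and -0.73, so the gap between the lines depends on the scaling. Of all 16993 genes 7275 were lower in both lines on the TMM scale. Scaling matters to the size of these values: the median of all genes moved to 0.21 with upper-quartile factors and to 0.15 with library totals alone, and the members' calls then stood at 50 lower and 7 higher and at 54 lower and 6 higher. Of all genes, 21.8% were then called lower and 37.7% higher with upper-quartile factors, and 23.7% and 34.2% with library totals. The members' own median was -0.48 and -0.53 under these scalings, below that of all genes in both.

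**Figure D1:**
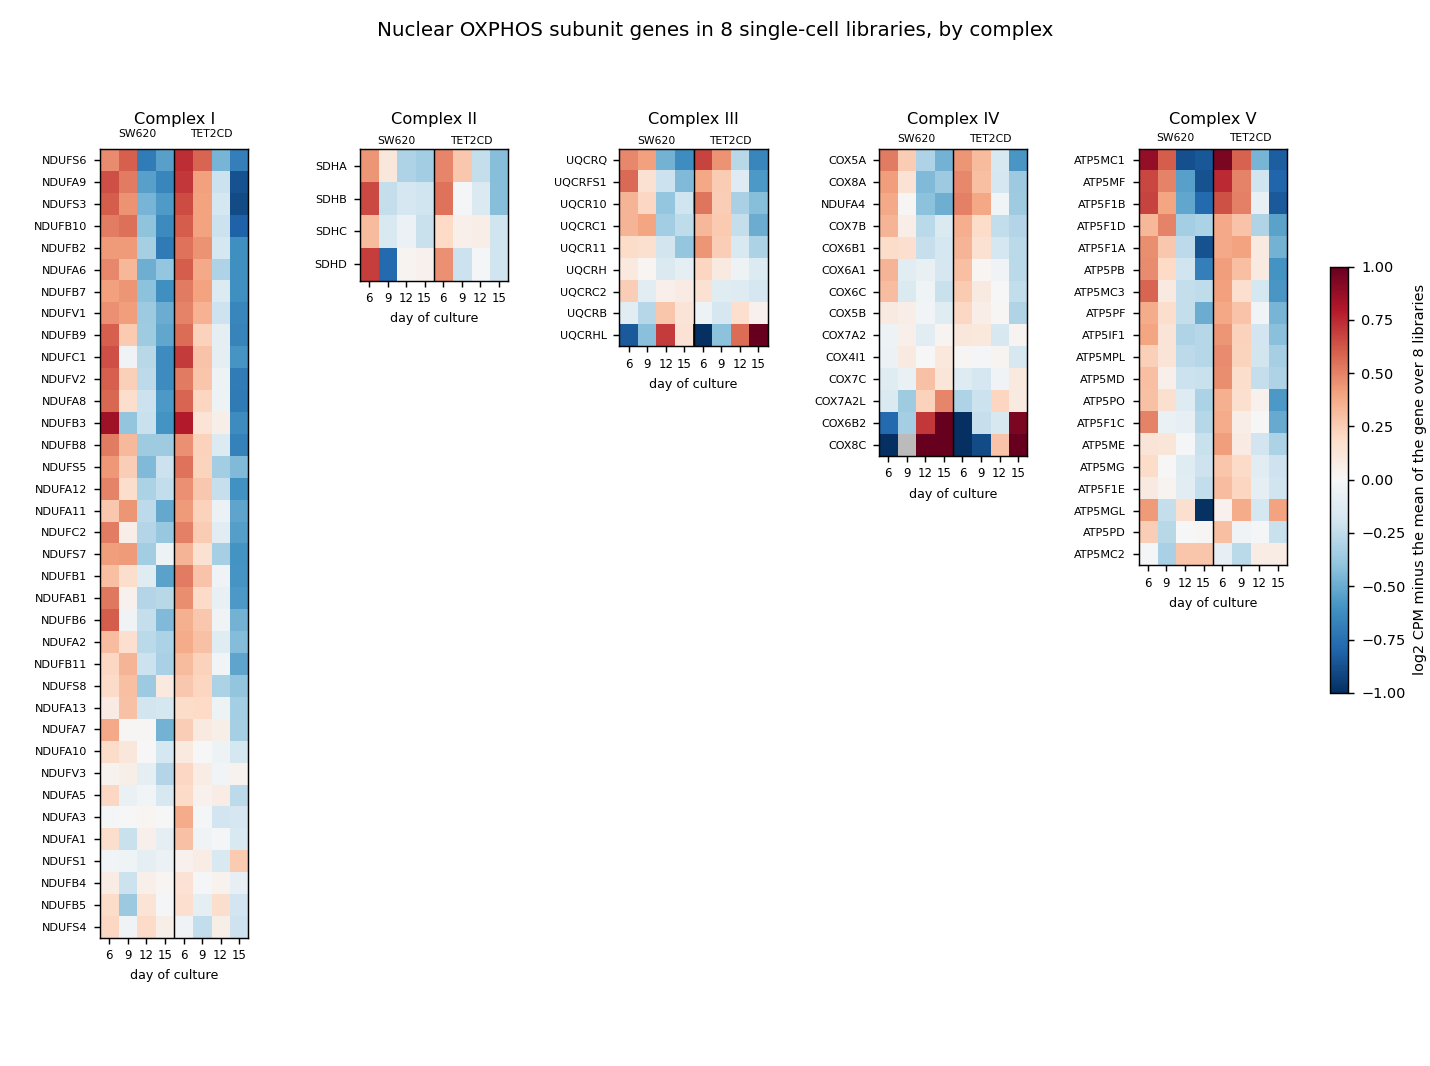
Levels of tested members in the 8 single-cell libraries, as log2 CPM minus the gene's mean over the libraries, by complex, line and day of culture; colours stop at 1 in either direction and grey marks 0 UMIs. Most genes of complexes I and V pass from high on days 6 and 9 to low on days 12 and 15 in both lines, while complex IV holds several genes that do not.

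Complex I, the NADH dehydrogenase, had 29 of its 37 genes called lower and none higher, with a median log2 fold change of -0.76, and 37 of 37 fitted values were below 0 (48.0% of those of all genes). NDUFS6, an accessory subunit of the electron-accepting arm, had in SW620 624, 679, 276 and 309 CPM on days 6, 9, 12 and 15. In SW620-TET2CD its levels on the same days were 747, 671, 325 and 279 CPM. Both lines were high on both early days and low on both late days without overlap, and the fitted log2 fold change was -1.30 ± 0.13 (SE, edgeR adjusted p = 3.8e-05).

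NDUFA9, an accessory subunit near the ubiquinone site, stood at 184, 169, 81.1 and 74.97 CPM over the 4 days in SW620 and at 193, 157, 102 and 64.6 CPM in SW620-TET2CD. Its late and early libraries did not overlap, with a log2 fold change of -1.23 ± 0.16 (edgeR adjusted p = 1.5e-04). NDUFV1, the flavoprotein that binds NADH, had 202, 197, 114 and 104 CPM in SW620 and 207, 187, 127 and 93.4 CPM in SW620-TET2CD, and it too separated late from early (log2 fold change -0.96 ± 0.13). NDUFAB1, the mitochondrial acyl carrier protein that is also a complex I subunit, fell by 0.72 ± 0.17 on the log2 scale.

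Subunits of complex I did not all move together. NDUFS1, the largest iron-sulphur subunit, had 73.6, 72.6, 70.3 and 72.2 CPM in SW620 and 77.2, 79.0, 67.4 and 89.9 CPM in SW620-TET2CD, so late and early libraries overlapped. Its log2 fold change was -0.13 ± 0.11 (edgeR adjusted p = 0.342), and with upper-quartile factors it turned to above 0 (0.04). Among the 8 genes of complex I without a call, the fitted value nearest to 0 was that of NDUFS4 (-0.06, edgeR adjusted p = 0.701). The smallest called decreases were those of NDUFA10 (-0.31 ± 0.10) and NDUFV3 (-0.30 ± 0.10). Each lost the call when SW620 day 6 (edgeR adjusted p = 0.0701 and 0.0524), SW620-TET2CD day 6 (0.0809 and 0.0774) or SW620 day 12 (0.0601 and 0.0515) was left out. Both also lost it with upper-quartile factors (-0.14 and -0.13, edgeR adjusted p = 0.245 and 0.253) or library totals (-0.20 and -0.19, edgeR adjusted p = 0.108 and 0.134). In cells with no UMI of a proliferation gene neither was called (edgeR adjusted p = 0.394 and 0.290).

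Complex II, the succinate dehydrogenase shared with the TCA cycle, had 2 of its 4 genes called lower, SDHA and SDHB, with a median of -0.48 over the 4. SDHA, the flavoprotein that oxidises succinate, had 147, 117, 87.1 and 84.5 CPM over the 4 days in SW620 and 151, 130, 91.3 and 80.1 CPM in SW620-TET2CD. Late and early libraries did not overlap (log2 fold change -0.78 ± 0.13, edgeR adjusted p = 0.000586), though in cells with no UMI of a proliferation gene the value was -0.25 and not called (0.247).

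For SDHB and SDHD the largest step between neighbouring days lay between days 6 and 9 in both lines. SDHB, the iron-sulphur subunit, had 127, 67.8, 71.3 and 70.0 CPM in SW620 and 117, 79.0, 72.7 and 59.6 CPM in SW620-TET2CD, and SDHD, a membrane anchor, had 133, 48.0, 83.6 and 84.7 CPM and 113, 70.8, 81.2 and 71.5 CPM. For SDHD the day 9 library of SW620 was the lowest of the 8, so late and early overlapped (log2 fold change -0.30, edgeR adjusted p = 0.374). SDHB was called lower (-0.62, edgeR adjusted p = 0.0234), but not when SW620 day 6 (-0.46, 0.103), SW620-TET2CD day 6 (-0.47, 0.0862) or SW620-TET2CD day 15 (-0.53, 0.0759) was left out, nor with upper-quartile factors (-0.45, 0.0668), with every barcode (-0.57, 0.0552) or in cells with no proliferation UMI (-0.27, 0.302). SDHC, the second anchor, had a log2 fold change of -0.33 (edgeR adjusted p = 0.0601). It was called lower in 5 of 20 settings, among them cells with no proliferation UMI (-0.52, edgeR adjusted p = 0.0288). Without SW620 day 9 both anchors were called lower, SDHC at -0.43 (edgeR adjusted p = 0.0275) and SDHD at -0.56 (0.0298). The sign of SDHD turned, with no call, without SW620 day 6 (0.007) and in cells with no proliferation UMI (0.11).

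Complex III, the cytochrome bc1 complex, had 6 of 9 genes called lower and 1 higher, with a median of -0.63. UQCRQ, a small subunit next to cytochrome b, had 422, 401, 217 and 196 CPM over the 4 days in SW620 and 484, 413, 250 and 192 CPM in SW620-TET2CD. It had the largest decrease of the complex, with no overlap (-1.12 ± 0.13, edgeR adjusted p = 8.9e-05). UQCRFS1, the Rieske iron-sulphur protein, fell by 0.79 ± 0.15 and UQCRC1, a core subunit, fell by 0.77 ± 0.12 on the log2 scale, whereas UQCRC2, the other core subunit, had -0.20 ± 0.13 and no call (edgeR adjusted p = 0.211).

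UQCRB, a subunit that binds ubiquinone, went the other way in level: its CPM was 380 and 336 early and 496 and 449 late in SW620, and 395 and 365 early and 460 and 423 late in SW620-TET2CD. All 4 late libraries lay above all 4 early ones, yet the log2 fold change of 0.20 ± 0.12 was not called (edgeR adjusted p = 0.184). UQCRH, the hinge subunit, had 629 to 672 CPM late and 704 to 808 CPM early; it was called lower by a small margin (-0.32 ± 0.12, edgeR adjusted p = 0.0367) and lost the call without SW620 day 6, SW620-TET2CD day 6, SW620 day 9, SW620-TET2CD day 9, SW620 day 12 or SW620-TET2CD day 15, each left out alone (-0.37 to -0.27, edgeR adjusted p = 0.0522 to 0.111). In cells with no proliferation UMI its value was -0.03 (edgeR adjusted p = 0.883). UQCRHL, an intronless copy of UQCRH, rose (1.25 ± 0.23, edgeR adjusted p = 0.000922), from 1.51 to 2.36 CPM early to 3.46 to 7.72 CPM late, on 112 to 394 UMIs per library, but was not called in cells with no proliferation UMI (1.08, edgeR adjusted p = 0.0905). Since it is nearly identical to UQCRH, reads can be split between the copies, and its value is uncertain.

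Complex IV, cytochrome c oxidase, had 7 of its 14 tested genes called lower and 3 higher, and its median of -0.35 was the closest to 0 of the 5 complexes. The genes called lower were COX5A (-0.87 ± 0.14), COX8A (-0.78 ± 0.13), NDUFA4 (-0.75 ± 0.14), COX7B (-0.59 ± 0.13), COX6B1 (-0.53 ± 0.12), COX6A1 (-0.40 ± 0.15) and COX6C (-0.37 ± 0.14). COX5A, a subunit on the matrix side, had 571, 474, 322 and 288 CPM in SW620 and 541, 497, 356 and 266 CPM in SW620-TET2CD, with no overlap between late and early. COX6A1 and COX6C were near the limit of the test: COX6A1 lost its call without SW620 day 6, SW620-TET2CD day 6, SW620 day 12 or SW620-TET2CD day 15 (edgeR adjusted p = 0.0802 to 0.133), and COX6C without either day 6 library, SW620-TET2CD day 9, SW620 day 12 or either day 15 library (0.0607 to 0.142). COX6A1, COX6C and UQCRH also lost the call with upper-quartile factors (edgeR adjusted p = 0.175, 0.208 and 0.226) and with library totals (0.0744, 0.0935 and 0.0691). With no upper limits on genes and UMIs COX6A1 and COX6C were not called (edgeR adjusted p = 0.0565 and 0.0536), nor was COX6A1 with every barcode (0.0605) or in cells with no proliferation UMI (0.0775), where COX7B lost its call as well (0.0871).

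COX4I1, the main isoform of the subunit through which ATP regulates the enzyme, had 560, 619, 583 and 626 CPM over the 4 days in SW620 and 585, 575, 594 and 521 CPM in SW620-TET2CD. Late and early overlapped (-0.12, edgeR adjusted p = 0.439), and the sign turned with upper-quartile factors (0.05). COX7C had 566, 587, 753 and 669 CPM in SW620 and 563, 547, 600 and 657 CPM in SW620-TET2CD: its 4 late libraries were the highest, with no call (0.13 ± 0.11, edgeR adjusted p = 0.338). COX5B (-0.32, edgeR adjusted p = 0.0503) and COX7A2 (-0.21, 0.144) also had no call. Over 20 settings COX5B was called lower in 6 and COX7A2 in 1.

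COX7A2L, the supercomplex factor, rose late. In SW620 it had 124, 107, 161 and 192 CPM and in SW620-TET2CD 111, 118, 159 and 146 CPM on days 6, 9, 12 and 15. All 4 late libraries lay above all 4 early ones (0.41 ± 0.13, edgeR adjusted p = 0.0243), though the call was lost without SW620 day 6 (0.0649), SW620-TET2CD day 6 (0.0514), SW620 day 9 (0.0956) or SW620 day 15 (0.0730). It was also lost with every barcode (0.0909), with no upper limits on genes and UMIs (0.0539) and in cells with no proliferation UMI (0.107), by the same test. Among the UMIs of COX7A2, COX7A2L and COX7A1 together, COX7A2L took 21.4% to 25.5% early and 27.6% to 33.4% late, with exact binomial 95% intervals at most 1.19 points wide, while COX7A1, the heart and muscle isoform, took at most 0.0130%.

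The other genes of complex IV called higher were scarce testis isoforms. COX6B2 had 25, 25, 48 and 80 UMIs over the 4 days in SW620 and 15, 36, 25 and 57 UMIs in SW620-TET2CD (1.33 ± 0.36, edgeR adjusted p = 0.00890). COX8C had 3, 0, 13 and 22 UMIs in SW620 and 1, 4, 6 and 15 UMIs in SW620-TET2CD (3.02 ± 0.61, edgeR adjusted p = 0.00187), and its locus lies inside UNC79 on the same strand, so its UMIs may include transcripts of that gene. At these counts the fitted fold changes are imprecise.

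Complex V, the ATP synthase, had 16 of 19 genes called lower and none higher, with a median of -0.65. ATP5F1B, the catalytic beta subunit, had 923, 757, 402 and 337 CPM over the 4 days in SW620 and 895, 817, 549 and 321 CPM in SW620-TET2CD, with no overlap (-1.19 ± 0.18, edgeR adjusted p = 0.000323). ATP5MF, a membrane subunit whose locus overlaps a read-through gene with PTCD1, fell by 1.30 ± 0.16 on the log2 scale. ATP5F1A, the alpha subunit, fell by 0.84 ± 0.17, and ATP5IF1, which blocks ATP hydrolysis by the enzyme, by 0.71 ± 0.13. The smallest called decreases were those of ATP5MG (-0.44 ± 0.12) and ATP5F1E (-0.43 ± 0.12), which both lost the call with upper-quartile factors (edgeR adjusted p = 0.0527 and 0.0611). ATP5MG also lost it in cells with no proliferation UMI (-0.24, edgeR adjusted p = 0.190).

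ATP5MC1, ATP5MC2 and ATP5MC3 encode the same mature c subunit, of which a ring forms the rotor, and differ only in their import sequences, and the 3 genes did not change alike. ATP5MC1 had 323, 268, 95.9 and 97.6 CPM over the 4 days in SW620 and 339, 265, 128 and 99.3 CPM in SW620-TET2CD. This was the largest decrease of all 83 members tested (-1.62 ± 0.15, edgeR adjusted p = 2.2e-05), with no overlap. ATP5MC3 had 710, 506, 403 and 399 CPM in SW620 and 632, 533, 421 and 318 CPM in SW620-TET2CD, also without overlap (-0.74 ± 0.16, edgeR adjusted p = 0.00269). ATP5MC2, in contrast, had 923, 749, 1133 and 1135 CPM in SW620 and 883, 776, 986 and 984 CPM in SW620-TET2CD. Its 4 late libraries all lay above the 4 early ones, without a call under TMM factors (0.23 ± 0.13, edgeR adjusted p = 0.151) but called higher under upper-quartile factors (0.40, 0.0130) or library totals (0.34, 0.0172).

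The makeup of the c subunit transcripts shifted between days 9 and 12. ATP5MC1 took 16.5% to 18.3% of the UMIs of the 3 genes in the early libraries and 5.88% to 8.31% in the late ones. ATP5MC2 took 47.2% to 49.3% early and 64.3% to 70.2% late, and ATP5MC3 took 33.2% to 36.3% early and 22.7% to 27.4% late. The exact binomial 95% intervals of these shares were at most 0.692 points wide, counting error only, and late and early libraries did not overlap for any of the 3. The 3 together summed to 1522 to 1956 CPM early and 1401 to 1632 CPM late.

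**Figure D2:**
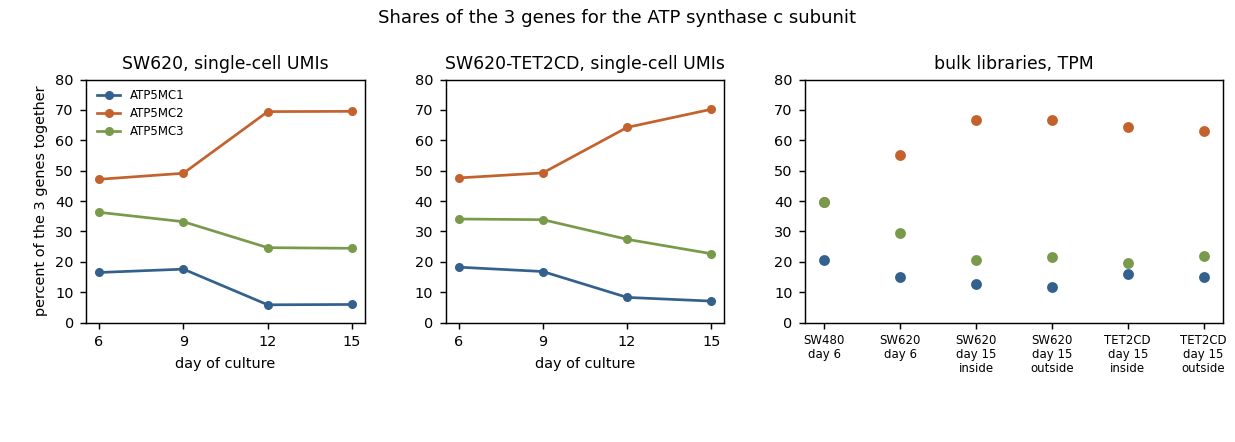
Percent of ATP5MC1, ATP5MC2 and ATP5MC3 in the sum of the 3 genes, by day of culture for the UMIs of SW620 and SW620-TET2CD and by library for bulk TPM; each point is 1 library. ATP5MC1 takes 16.5% to 18.3% of UMIs on days 6 and 9 and 5.88% to 8.31% on days 12 and 15, while in bulk it takes 15.2% in SW620 on day 6 and 11.7% to 15.98% in the day 15 libraries; in SW480 the points of ATP5MC2 and ATP5MC3 coincide.

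**Figure D3:**
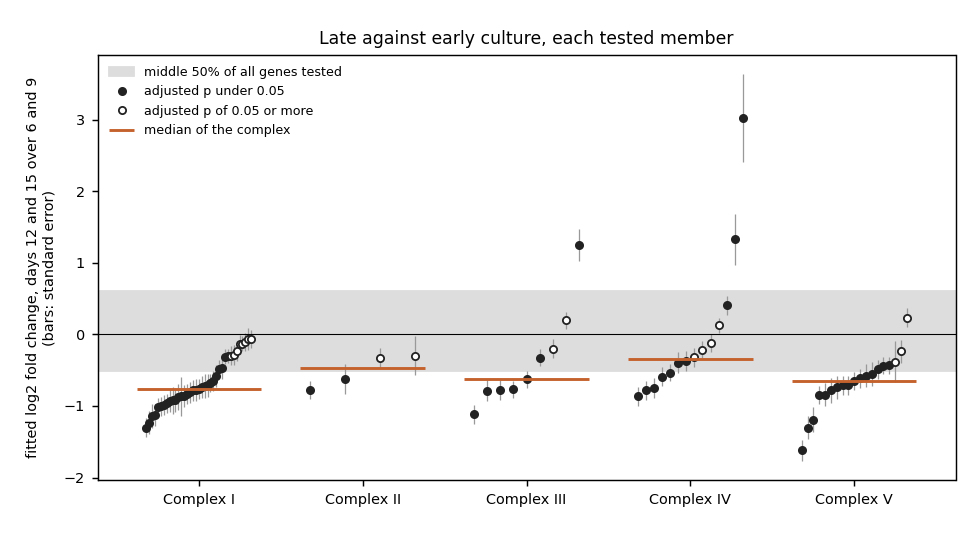
Fitted log2 fold change of days 12 and 15 over days 6 and 9 for each of the 83 members tested, by complex; bars are standard errors, filled points are called by edgeR, orange lines are medians and the grey band is the middle 50% of all genes tested (-0.51 to 0.61). The medians of complexes I, III and V (-0.76, -0.63 and -0.65) lie below the band, while those of complexes II and IV (-0.48 and -0.35) lie inside it.

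Summed over members, complex I had 9096, 8292, 5826 and 5544 CPM over the 4 days in SW620 and 9472, 8298, 6411 and 4977 CPM in SW620-TET2CD, a change of mean late over mean early of -34.6% and -35.9%. Complex V had 8543, 7374, 6089 and 5678 CPM and 8785, 7786, 6367 and 5297 CPM, a change of -26.1% and -29.6%. For both complexes late and early libraries stood clearly apart in each line.

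Complex III had 2804, 2593, 2197 and 2131 CPM in SW620 and 3020, 2685, 2258 and 2018 CPM in SW620-TET2CD, a change of -19.8% and -25.1%. Complex IV had 6038, 5368, 4809 and 4767 CPM and 6232, 5705, 4954 and 4486 CPM, a change of -16.04% and -20.9%, the smallest of the 5 in both lines. Complex II had 531, 323, 338 and 325 CPM and 496, 384, 350 and 299 CPM (-22.3% and -26.3%); its largest step lay between days 6 and 9, so that its mean over both lines moved from -0.40 on the log2 scale to -0.20 without SW620 day 6 and to -0.56 without SW620 day 9. Complex I took 33.7% of all member UMIs on day 6 and 30.1% on day 15 in SW620, and 33.8% and 29.1% in SW620-TET2CD. Complex IV took 22.4% and 25.8%, and 22.3% and 26.3%, while complex V stayed between 30.8% and 31.6% in all 8 libraries. The exact binomial 95% intervals of these shares were at most 0.194 points wide. No test was made of the sums.

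**Figure D4:**
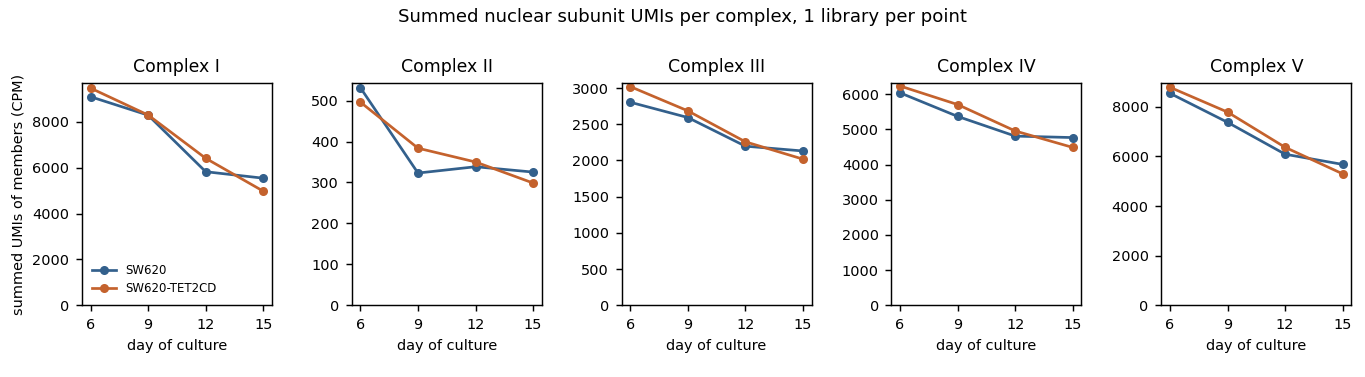
Summed UMIs of the members of each complex in CPM against day of culture, 1 library per point, for SW620 and SW620-TET2CD; the axes start at 0. Complexes I, III, IV and V decline from day to day in both lines, with complex I from 9096 and 9472 CPM on day 6 to 5544 and 4977 CPM on day 15, while complex II has its largest step between days 6 and 9.

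The days were then compared in steps, in a fit with line and day as terms. The median log2 change of the members was -0.22 from day 6 to 9, -0.44 from day 9 to 12 and -0.13 from day 12 to 15. For all genes it was 0.01, 0.02 and 0.01. In these steps 76, 70 and 64 of the 83 members had fitted values below 0 (48.5%, 48.6% and 48.5% of all genes). From day 6 to day 9, 2 members were called lower and none higher (background 0.347% of genes lower): SDHD (-1.07, edgeR adjusted p = 0.0401) and NDUFB3, a small accessory subunit of complex I (-0.96, 0.0405). From day 9 to day 12, 42 members were called lower and 2 higher (background 22.3% lower and 20.8% higher): 21 of complex I, 1 of complex II, 5 of complex III, 5 of complex IV and 10 of complex V were lower, and UQCRHL and COX8C were higher. From day 12 to day 15, 2 members of complex V were lower (background 6.53% lower), ATP5F1A (-0.56, edgeR adjusted p = 0.0339) and ATP5PB, a stalk subunit (-0.56, 0.0390). These counts rest on 3 residual degrees of freedom and vary with single libraries: the day 9 to 12 count of 44 was 7 without SW620 day 9, 7 without SW620 day 12 and 14 without SW620-TET2CD day 9. The day 6 to 9 count was 0 without SW620 day 6, SW620-TET2CD day 6 or SW620 day 9, 1 without SW620-TET2CD day 9, 14 without SW620 day 15 and 13 without SW620-TET2CD day 15, and the day 12 to 15 count was 35 without SW620 day 15 and 0 without any of the day 6 and day 9 libraries or SW620-TET2CD day 12. The share of all genes called in each of these refits is not given here. The refit counts therefore show only how the calls vary with single libraries.

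Cells differed in growth between the periods, and so did the levels of the OXPHOS genes. Proliferation genes summed to 2184 to 2481 CPM early and 341 to 657 CPM late, with 14 of 14 called lower, and 93.9% to 98.9% of early cells but 57.2% to 78.6% of late cells had at least 1 UMI of that list (exact binomial 95% intervals at most 2.71 points wide). The split follows depth as well as growth, since the median cell without such a UMI held 4315 to 11148 UMIs per library and the median cell with one 6792 to 13657. Within the cells that had such a UMI, the summed members changed late by -0.42 (SW620) and -0.47 (SW620-TET2CD) on the log2 scale, against -0.43 and -0.50 in all kept cells, and 61 members were called lower and 4 higher (background 28% of genes lower and 28.8% higher in that fit). Within the cells that had none, the changes were -0.40 and -0.56, and 47 members were called lower and none higher (background 12.4% and 14.4%). COX6B2 and COX8C could not be tested in those cells. Among the members named here that lost the call there were SDHA (-0.25, edgeR adjusted p = 0.247), SDHB (-0.27, 0.302), UQCRH (-0.03, 0.883), COX7B (-0.33, 0.0871), COX6A1 (-0.38, 0.0775), NDUFA10 (-0.17, 0.394), NDUFV3 (-0.22, 0.290), ATP5MG (-0.24, 0.190) and ATP5MC3 (-0.36, 0.0648). UQCRHL (1.08, edgeR adjusted p = 0.0905) and COX7A2L (0.34, 0.107) were no longer called higher. SDHC (-0.52, edgeR adjusted p = 0.0288) gained a call as lower. The part of growth in the decrease was not tested. Targets of the hypoxia-inducible factors summed to 223 to 410 CPM early and 1454 to 1617 CPM late, with 11 of 12 called higher. In bulk SW620 the same list differed less, with 984 TPM on day 6 and 1085 inside and 1200 outside on day 15. The part of hypoxia in the decrease was not tested.

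The lines were compared on the same days. With day as a term, no member was called between SW620-TET2CD and SW620 by edgeR (smallest adjusted p = 0.129 for NDUFS4) or by DESeq2, against a background of 4.33% of genes. An unadjusted edgeR p under 0.05 was seen for 4 of 83 members and for 14.7% of all genes. The median log2 difference of the members was -0.08, with values from -0.64 to 0.16, and 68 of the 83 were below 0 (50.9% of all genes). The term for a different late change between the lines gave 0 members (0 at an unadjusted p under 0.05 and 0 by DESeq2) and 0 of 16993 genes, of which 137 (0.806%) had an unadjusted p under 0.05. The median of this term over the members was -0.15, and 69 of the 83 values were below 0 (49.1% of all genes). With 1 library per line and day the term is imprecise, so the lack of calls does not show that the lines changed alike. In bulk on day 15 no member was called between the lines either (smallest edgeR adjusted p = 0.134 for NDUFA6; 6 of 81 at an unadjusted p under 0.05; 0 by DESeq2; background 0.412%), with a median of -0.04.

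Location was examined in the bulk libraries, where TPM scales each gene by its length. No member differed between cells outside and inside the colonies by edgeR (smallest adjusted p = 0.772; 2 of 81, NDUFA7 and NDUFB10, at an unadjusted p under 0.05; 0 by DESeq2), and 0 of 17722 genes were called. An unadjusted p under 0.05 was seen in 6.03% of genes, and 1 residual degree of freedom limits this test. The median fitted log2 difference was -0.05. In bulk samples a lower level can stem from fewer cells of a kind or from less RNA per cell, which cannot be told apart. Complex I summed to 5866 TPM inside and 5505 TPM outside in SW620 and to 5758 and 5751 TPM in SW620-TET2CD; complex II summed to 430 and 460 TPM and to 394 and 423 TPM, complex III to 1541 and 1591 TPM and to 1445 and 1480 TPM, complex IV to 3846 and 3706 TPM and to 3620 and 3505 TPM, and complex V to 5733 and 5526 TPM and to 5465 and 5488 TPM. By sums, outside cells were lower for complex IV and higher for complexes II and III in both lines. These differences were at most 0.10 on the log2 scale. The rise of complex III lay in UQCRH (550 TPM inside and 622 outside in SW620, 515 and 584 in SW620-TET2CD). Of the 9 fitted values of complex III, 7 were below 0 (48.9% of those of all genes). No gene among the 79 (SW620) and 80 (SW620-TET2CD) with at least 1 TPM in both libraries compared moved past 1 on the log2 scale (background 1.78% and 6.65%).

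The bulk libraries also hold 1 day 6 library of SW620, which gives day 15 over day 6 with no replicate and no test. All members summed to 22217 TPM on day 6 and to 17416 TPM inside and 16787 TPM outside on day 15. For complexes I to V the log2 ratio of day 15 to day 6 sums was -0.37, -0.44, -0.34, -0.31 and -0.36 inside. Outside it was -0.46, -0.35, -0.29, -0.36 and -0.41, so neither order matched that of the single-cell sums. Inside the colonies 68 of the 79 members with at least 1 TPM in both libraries were below their day 6 level, with a median log2 ratio of -0.32 (all genes -0.06, with 54.9% below 0), and outside 73 of 79, with a median of -0.40 (all genes -0.09, with 57.5% below 0). Only NDUFC1, of complex I, was past 1 in the outside cells (58.1 TPM on day 6, 34.4 inside, 28.6 outside; background 5.28% lower outside and 5.89% lower inside). Of the 60 members called lower in the single-cell data, 54 (90%) were also lower in both day 15 bulk libraries of SW620, the exceptions being NDUFV1, NDUFS8, NDUFA11, NDUFA7, NDUFV3 and ATP5F1D, while over all genes called lower it was 76.8%.

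Levels per length placed the named genes as follows. COX7A2L had 49.1 TPM on day 6 of SW620 and 74.4 inside and 79.9 outside on day 15, with 86.4 and 75.8 in SW620-TET2CD, so both day 15 libraries of SW620 lay above its day 6. ATP5MC2 had 545 TPM on day 6 and 650 and 598 in SW620 and 676 and 582 in SW620-TET2CD on day 15. ATP5MC3 had 293 TPM on day 6 and 199.6 and 194 in SW620 on day 15, both lower, and 204 and 202 in SW620-TET2CD. ATP5MC1 had 150 TPM on day 6, 125 and 105 in SW620 and 167 and 140 in SW620-TET2CD on day 15, so within SW620 both day 15 libraries lay below day 6 (log2 ratios -0.26 and -0.51), by less than in the UMIs. SW620-TET2CD has no bulk library of day 6 here, so its values cannot be set against an early level of its own line. COX4I2, COX6A2 and COX8C were listed at 0 TPM in the SW620 day 6 library and in both day 15 libraries of SW620. Of the 4 members called higher in the single-cell data, only COX7A2L had at least 1 TPM in all 3 SW620 libraries. The others were low there: COX6B2 had 0.39 TPM on day 6 and 0.31 inside and 0.23 outside on day 15, and UQCRHL had 0.5, 0.9 and 1.05 TPM.

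**Figure D5:**
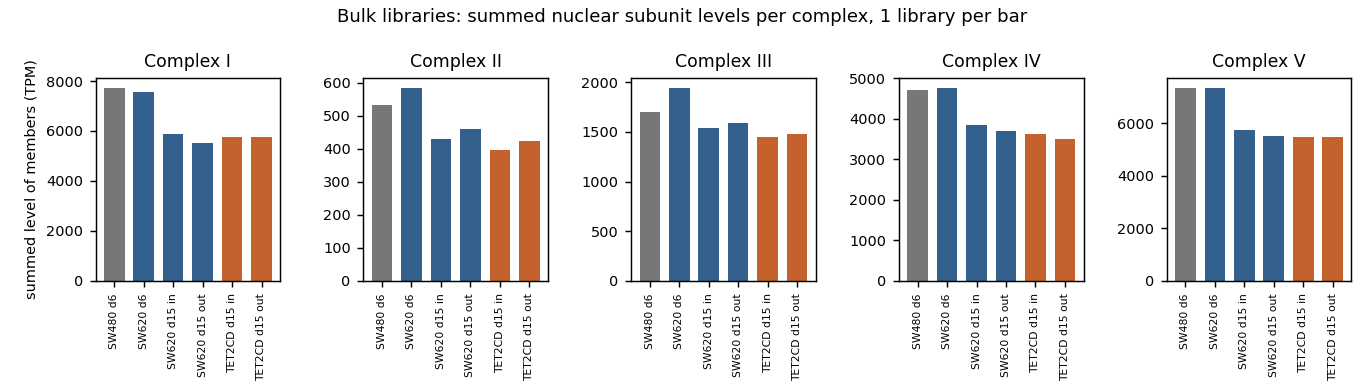
Summed TPM of the members of each complex in the 6 bulk libraries, 1 library per bar, axes from 0. The SW480 and SW620 bars of day 6 are the highest in each complex (7736 and 7557 TPM for complex I), and the 4 bars of day 15, inside and outside the colonies, stand close together (5505 to 5866 TPM for complex I).

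SW480 and SW620 on day 6 had nearly the same total, 22048 and 22217 TPM, with 1 library each and no test. Of 79 members 41 (51.9%) were lower in SW480, near the 51.2% of all genes, with a median log2 ratio of -0.04, and 3 were past 1, where 22.7% of all genes were. ATP5MF had 2089 TPM in SW480 and 1005 TPM in SW620 (1.06), NDUFB8, an accessory subunit of complex I, had 133 and 306 TPM (-1.20), and UQCRC2 had 74.2 and 162 TPM (-1.12). The c subunit genes also differed in makeup: ATP5MC2 took 39.6% of their TPM in SW480 and 55.2% in SW620.

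Genes that work with these complexes were counted from lists of their own in the late against early comparison, where 28.3% of all genes were called lower and 29.4% higher. Several lists are short, and some of their shares lie near these. Of 18 assembly factors of complex I, 15 were called lower and none higher (median -0.68), with NDUFAF8 (-1.59), NDUFAF6 (-1.39), ACAD9 (-1.38) and ECSIT (-1.28) the lowest. Assembly factors of complex V gave 3 of 4 lower (ATPAF1, -1.15), those of complex III 3 of 6 lower and 1 higher (BCS1L, -1.60; TTC19, 0.34), and those of complex II 2 of 4 lower and 1 higher (SDHAF3, -0.86; SDHAF4, 1.27). Those of complex IV gave 10 of 23 lower and 2 higher, with a median of -0.30; TACO1, an activator of COX1 translation, fell by 1.03, while COX19 and COA5 rose by 0.39 each.

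The electron carriers CYC1 (-1.31) and CYCS (-1.30) were called lower, 2 of 5 genes of that list. Of 13 TCA cycle enzymes 10 were lower and none higher (median -0.64), led by FH (-1.27) and IDH3A (-1.07). Of 11 tested regulators of respiratory genes 8 were lower and none higher, among them TFAM, the packaging and transcription factor of mitochondrial DNA (-0.93). Of the 13 subunits encoded by mitochondrial DNA, 3 were called higher, MT-ND2 (0.92), MT-ATP8 (0.93) and MT-ND4L (0.96), and none lower, with a median of 0.22 and sums of 39260 to 75415 CPM that overlapped between early and late. The limit of 10% mitochondrial UMIs acts on these genes directly, so their levels depend on the choice of cells. In cells with no proliferation UMI their sum changed late by -0.49 in SW620 and -0.18 in SW620-TET2CD on the log2 scale, and in cells with one by -0.12 and 0.34.

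A list of oxygen-responsive genes gave 4 higher and 3 lower of 8 tested (median 1.02). HIF1A, EPAS1, EGLN3, PDK1 and BNIP3 of this list are not variants of respiratory subunits. EPAS1 (4.03, at no more than 1.90 CPM) and EGLN3 (2.54) were among the 4 called higher. NDUFA4L2, a paralogue of NDUFA4 induced by hypoxia, had 0.257, 6.62, 49.5 and 19.8 CPM on days 6, 9, 12 and 15 in SW620 and 0.135, 3.56, 122 and 48.0 CPM in SW620-TET2CD. It rose late with no overlap (4.32 ± 0.99, edgeR adjusted p = 0.00372), while NDUFA4 itself had 775, 602, 449 and 424 CPM in SW620 and 847, 782, 585 and 467 CPM in SW620-TET2CD and fell. COX4I2, the hypoxia isoform of COX4I1, stayed at no more than 0.0197 CPM in every library, below the 3-UMI floor of each (0.0404 to 0.0623 CPM), so no exchange of COX4 isoforms was detectable at this depth.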

How the data were processed

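The members and gene lists were chosen with earlier results of these data known. The authors deposited single-cell UMI counts per gene and barcode, made with Cell Ranger 4.0 and GRCh38 per the submitters' processing notes, and for bulk RNA-seq the expected counts and TPM of RSEM with Bowtie. The notes name mm10 for the bulk files, although their identifiers are human; no source names the strand setting of the bulk counting, so genes that overlap on the opposite strand may share counts there. The 45 entries of the Y copy of the pseudoautosomal region were left out of the bulk tables, and 36556 of the 36601 single-cell genes were found there.

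From the deposited values, UMIs were summed over kept cells per library. Limits on cells were those in the study's methods, but the study reports fewer cells that passed than were kept here. Doublets were not called, and an alternative dropped the deepest 8% of cells per library. Depth was 48186195 to 74185723 UMIs per single-cell library and 16470176 to 25840563 expected counts per bulk library. Expected counts were rounded. edgeR 4.0.16 in R 4.3.3 (two-sided quasi-likelihood test after filterByExpr and TMM scaling, with Benjamini-Hochberg adjustment over all genes at 0.05) was fitted with line, day or location as the block; DESeq2 1.42.0, other scalings, filters on genes and cells and single libraries left out were alternatives. CPM values are UMIs scaled to a common library total, bulk ratios are log2 TPM ratios without a pseudocount, and complex sums and single-library ratios have no test. Intervals are exact binomial (Clopper-Pearson) at 95% and cover counting error only. Scripts were tested on simulated data. Gene positions came from GENCODE v44 and promoters from RefSeq GRCh38.p14; protein sequences were not used here. Every member was counted, those outside the rule below by counts and ranges, and 1 member that the rule names is not reported here. Values were given per complex for the 2 members called with the highest and the 2 with the lowest fold change of the same sign in both lines, for a list of core, isoform and regulatory members, and for up to 4 genes of each other list by size of change; NDUFB3, NDUFB8, NDUFC1, UQCRB, UQCRC2, COX7C, ATP5PB and the members named beside a smallest p or a list of exceptions were added after their values were seen. Python 3.11.15, pandas 2.3.3, numpy 2.4.6 and matplotlib 3.10.9 were used.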

Additional observations from a re-analysis of the deposited data

Results flagged for a closer look

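Every group held 1 library, so no search for a library far from its group was possible. NDUFA3, an accessory subunit of complex I, was the only tested member for which every late library of a line lay above its early libraries and every late library of the other lay below them. It had 54.0, 54.2, 55.03 and 54.6 CPM on days 6, 9, 12 and 15 in SW620 and 70.3, 53.5, 47.6 and 48.5 CPM in SW620-TET2CD. The log2 ratio of mean late to mean early CPM was 0.02 in SW620 and -0.366 in SW620-TET2CD. On the TMM-scaled levels that the test uses the ratios were -0.04 and -0.53, so on that scale both lines fell. The difference itself, tested as the line by period term, was -0.50 ± 0.26 with an adjusted p of 1.00 (edgeR's quasi-likelihood test), which gives no call.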

How the results depend on the processing

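The late decrease was called for 47 to 64 members over all settings tried (60 as reported, and 51 to 63 with 1 library left out). Of all genes tested, 12.4% to 29.3% were called lower over these settings (28.3% as reported, and 23.7% to 29.3% with 1 library left out). The counts for TET2CD against SW620, line by period and outside against inside were 0 in every setting. Without the replicate block of line 62 members were called lower and 4 higher (66 in all), and without the block of day, line or location the other counts stayed at 0; libraries carry no replicate number that could pair them further. Of 16993 genes, upper-quartile factors gave 3708 lower (21.8%) and 6413 higher (37.7%), and library totals 4021 (23.7%) and 5813 (34.2%), against 4807 (28.3%) and 5001 (29.4%). Without the block of line 27.8% of genes were called lower and 28.9% higher. For day 9 over day 6 (2 members) the count was 4 with DESeq2, with every gene that has a count and with every barcode, 1 in cells with no proliferation UMI, and 0 to 14 with 1 library left out. For day 12 over day 9 (44) it was 29 with every barcode, 19 in cells with no proliferation UMI, and 7 to 60 with 1 library left out. For day 15 over day 12 (2) it was 5 with DESeq2, 9 with upper-quartile factors, 10 with library totals, 8 with every gene, 6 with every barcode, and 0 to 35 with 1 library left out. For bulk TET2CD against SW620 (0) it was 1 with every gene that has a count. For these comparisons the share of all genes called in each refit is not given here, so the counts show only how the calls vary. Mean log2 changes of the complex sums moved with TMM-scaled CPM, chosen after seeing the data, to -0.51 (complex II, from -0.40), -0.48 (III, from -0.37) and -0.41 (IV, from -0.30), and with CPM over genes other than mitochondrial and ribosomal protein genes to -0.21 (IV); with 1 library left out complex II ran from -0.56 to -0.20. The setting of cells with a proliferation UMI was also chosen after seeing the data. Signs turned for COX4I1 (0.0488) and NDUFS1 (0.0408) with upper-quartile factors, for NDUFS1 (0.0724) and SDHD (0.106) in cells with no proliferation UMI, and for SDHD (0.00749) without SW620 day 6, none of them called as reported. Of 720 refits of single genes 640 kept direction and call, 59 lost the call, 16 gained it and 5 turned. The causes were not tested. Leaving out a bulk library leaves no residual degree of freedom, so each line was taken alone: the median outside over inside was -0.04 in SW620 and -0.01 in SW620-TET2CD. A single library per line and day, and 3 or 1 residual degrees of freedom, limit the step and location tests. The line by period term is limited by the single library per line and day as well.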
